A study of Mus musculus with 24 samples.

Results

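The H3K4me3 libraries of NUP98-HOXA9 mouse leukaemia cells, 1 treated with the inhibitor VTP50469 and 1 with its solvent DMSO, are 2 of the 24 chromatin immunoprecipitation (ChIP) samples of the series, 14 of which come with a list of called regions. They were chosen by their labels: the NUP98-HOXA9 line, the H3K4me3 antibody, and an exposure of 96 h to VTP50469 at 2 µM or to DMSO. Both cultures carried the NUP98-HOXA9 fusion and grew with mouse IL-3, IL-6 and SCF, so the control is also a leukaemic, cytokine-fed culture. The line is labelled as mouse leukaemia, and how many animals or clones it stands for is not given in the sources used here. With 1 library per condition, no difference below has a replicate check or a p-value. All values are therefore differences between these 2 libraries, and any effect of the inhibitor cannot be told apart from the spread between libraries. Lists of NUP98-HOXA9 cells for MLL1 (72 h) and for Menin (96 h) were used beside them. The titles of the MLL1 libraries carry another form of the line's name and another number tag than those of H3K4me3 and Menin. The time of 72 h stands in the title of the DMSO MLL1 library but not in that of the VTP50469 one.

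Trimethylation of histone H3 at lysine 4 (H3K4me3) marks the nucleosomes just downstream of active gene starts and is placed by the SET1 and MLL family of methyltransferases. Menin is a subunit that brings MLL1 and MLL2 to chromatin, and VTP50469 is a small molecule that occupies the pocket of Menin through which it holds MLL. NUP98-HOXA9 fuses a nucleoporin with disordered repeats to the DNA-binding part of a HOX protein, and the leukaemias it drives express HOX genes and their partner Meis1. The series was designed to follow what changes in such cells when the Menin-MLL contact is blocked.

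Promoter sequences are shown for 7 genes on which the results below turn: 2 whose start lost its H3K4me3 region after VTP50469 (Meis1, Calcrl), 3 whose start had one only after VTP50469 (Hoxb8, Mif, Elane) and 2 whose start kept it (Cebpa, Mpo). They were picked with their values known. Each is the 250 bases just upstream of the annotated start, on the gene's strand, from RefSeq's GRCm38.p6 assembly, with every CpG in capitals, since CpG-rich starts are where H3K4me3 is usually laid down.
Meis1 (chr11:19018970-19019219, minus strand): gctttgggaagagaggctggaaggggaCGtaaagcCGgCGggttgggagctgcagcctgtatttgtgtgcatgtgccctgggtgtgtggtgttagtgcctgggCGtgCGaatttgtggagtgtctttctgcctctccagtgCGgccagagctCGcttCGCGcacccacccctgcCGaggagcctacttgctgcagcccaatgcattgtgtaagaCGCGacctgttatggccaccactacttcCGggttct
Calcrl (chr2:84425267-84425516, minus strand): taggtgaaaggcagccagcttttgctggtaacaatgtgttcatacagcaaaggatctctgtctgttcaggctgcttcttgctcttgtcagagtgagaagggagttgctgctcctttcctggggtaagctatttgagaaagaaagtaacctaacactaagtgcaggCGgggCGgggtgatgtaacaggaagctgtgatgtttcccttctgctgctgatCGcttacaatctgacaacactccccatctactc
Hoxb8 (chr11:96281655-96281904, plus strand): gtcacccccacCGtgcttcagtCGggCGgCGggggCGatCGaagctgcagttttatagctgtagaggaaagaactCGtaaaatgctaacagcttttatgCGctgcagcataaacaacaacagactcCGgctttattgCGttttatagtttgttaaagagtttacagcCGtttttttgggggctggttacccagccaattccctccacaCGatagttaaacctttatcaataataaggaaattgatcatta
Mif (chr10:75860278-75860527, minus strand): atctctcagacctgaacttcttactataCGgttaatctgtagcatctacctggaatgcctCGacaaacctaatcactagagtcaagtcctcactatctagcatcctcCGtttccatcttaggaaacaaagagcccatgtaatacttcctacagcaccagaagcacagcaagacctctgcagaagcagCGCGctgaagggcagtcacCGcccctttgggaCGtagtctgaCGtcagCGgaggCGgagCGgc
Elane (chr10:79886062-79886311, plus strand): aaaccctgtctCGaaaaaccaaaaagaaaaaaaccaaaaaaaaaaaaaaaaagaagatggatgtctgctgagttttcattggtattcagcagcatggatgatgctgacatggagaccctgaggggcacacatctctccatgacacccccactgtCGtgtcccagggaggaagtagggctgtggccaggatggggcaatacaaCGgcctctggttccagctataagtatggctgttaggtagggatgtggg
Cebpa (chr7:35119043-35119292, plus strand): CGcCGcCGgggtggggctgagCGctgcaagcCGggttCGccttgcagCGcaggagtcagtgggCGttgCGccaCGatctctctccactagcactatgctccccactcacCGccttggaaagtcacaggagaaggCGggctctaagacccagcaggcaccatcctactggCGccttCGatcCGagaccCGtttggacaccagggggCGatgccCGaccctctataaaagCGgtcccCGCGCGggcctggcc
Mpo (chr11:87793534-87793783, plus strand): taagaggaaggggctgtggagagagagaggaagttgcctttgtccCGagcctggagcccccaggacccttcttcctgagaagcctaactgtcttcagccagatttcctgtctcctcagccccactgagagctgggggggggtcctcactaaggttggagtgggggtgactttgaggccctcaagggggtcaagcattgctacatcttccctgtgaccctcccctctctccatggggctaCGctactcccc
The windows of Meis1, Hoxb8, Mif and Cebpa hold 13, 12, 11 and 22 CpG. Those of Calcrl, Elane and Mpo hold 3, 3 and 2. No base of any of these 7 windows lay in an H3K4me3 region of either list. The regions near them began downstream, except that Cebpa also had a weaker one ending at −336 bp from the start after VTP50469 and at −358 bp in DMSO. The Meis1 region, present in the DMSO list only, ran from 110 to 696 bp after the start. At Hoxb8, whose product is a HOX transcription factor that blocks myeloid maturation, a region ran from 260 to 3431 bp after the start in the VTP50469 list, against 1173 to 1792 bp in the DMSO list. Elane encodes neutrophil elastase, and its region in the VTP50469 list ran from 271 to 1404 bp, with none in the DMSO list. That region was weak: the authors' fold over background was 3.83, within the lowest decile of the VTP50469 list. Cebpa, the master regulator of granulocyte commitment, had its main region at 172 to 3324 bp after VTP50469 and at 120 to 2533 bp in DMSO. Mpo, the myeloperoxidase gene, had its region at 702 to 2805 bp after VTP50469 and at 590 to 2863 bp in DMSO.

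Most DMSO regions of H3K4me3 overlapped a region called after VTP50469, and the VTP50469 list covered slightly more of the genome. How much of the mark the cells kept cannot be had from region lists. The list held 9468 regions after VTP50469 and 9347 in DMSO on chromosomes 1 to 19 and X, covering 8.46 Mb after VTP50469 and 7.90 Mb in DMSO, a ratio of 1.07. The mean width was 894 bp after VTP50469 and 845 bp in DMSO, and the median 759 bp after VTP50469 and 714 bp in DMSO. The same comparison for Menin shows the size that a loss can take in such lists: 345 Menin regions were called after VTP50469 and 8961 in DMSO. MLL1 stood between, with 21537 regions covering 12.2 Mb after VTP50469 and 22339 covering 15.3 Mb in DMSO. Read depth cannot be had from region lists, but most of the authors' folds at a region's summit lay on a grid of fixed steps. The step was 0.141 in the VTP50469 list, where 85.8% of folds lay on the grid to within 0.01 steps, and 0.211 in the DMSO list, where 79.8% did. A unit of fold takes 1.49 times as many steps in the VTP50469 list as in the DMSO list. The grid was offset from 0 by 0.410 of a step in the VTP50469 list and by 0.999, nearly a whole step, in the DMSO list. A plain count of fragments over a constant background would leave no part of a step. What 1 step stands for in the VTP50469 list is therefore not known. The part of this in the longer and wider VTP50469 list was not tested.

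Of the VTP50469 regions, 1133 (12.0%, 95% Wilson interval 11.3 to 12.6) shared no base with a DMSO region. Of the DMSO regions, 879 (9.4%, interval 8.83 to 10.0) shared none with a VTP50469 region. These shares are the background against which those of single chromosomes or gene groups below are read, and the intervals cover counting over regions only. The unshared regions were narrower and weaker at the median: new regions had a median width of 428 bp and fold of 4.43, against 807 bp and 7.11 in the rest of the VTP50469 list, and lost regions 401 bp and 4.22, against 750 bp and 6.96 in the rest of the DMSO list. Exceptions were a new region with a fold of 19.1, the highest of the VTP50469 list, and a lost region of 2105 bp, at Hgf. In the lowest fold decile of the VTP50469 list 52.0% of regions were new, and in the top decile 0.211%. In the DMSO list 45.0% of the lowest decile and 0 of the 935 regions in the top decile were lost; a count of 0 there allows at most 0.409%. Unshared regions also differed by position. At gene starts, within 1 kb, lay 8548 VTP50469 regions (90.3%) and 8303 DMSO regions (88.8%), of which 9.25% were new and 5.54% lost. Inside genes away from a start 31.0% were new and 31.2% lost, and between genes 54.3% were new and 62.4% lost.

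**Figure D1:**
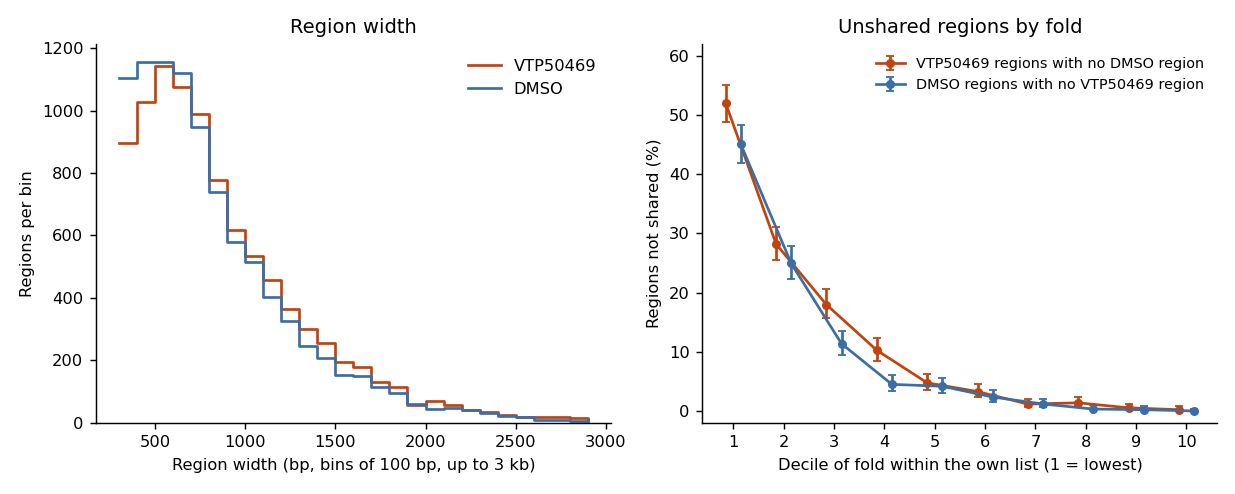
Left, number of H3K4me3 regions per 100 bp of width in the VTP50469 and DMSO lists. Right, share of each list's regions that share no base with the other list, by decile of the authors' fold within that list, with 95% Wilson intervals (counting only); the share falls to 0.211% of VTP50469 regions and 0% of DMSO regions in decile 10.

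Where a region of each list overlapped exactly 1 of the other, the pair could be compared in width. There were 7934 such pairs, with a median width of 797 bp after VTP50469 and 751 bp in DMSO and a median log2 ratio of 0.06 (1.04-fold). The region was wider after VTP50469 in 4564 pairs (57.5%) and narrower in 3343 (42.1%). Past 1.5-fold, 805 were wider (10.1%) and 400 narrower (5.04%). In addition 223 VTP50469 regions each joined several DMSO regions, and 91 DMSO regions each split. The difference was smallest for the widest regions: in the top decile by mean width the medians were 1780 bp after VTP50469 and 1762 bp in DMSO. Around the 5933 starts marked in either list of genes with a single annotated start, the share covered by a region 300 bp downstream was 87.8% after VTP50469 and 84.0% in DMSO, and at the start itself 29.2% after VTP50469 and 26.3% in DMSO. For the 1170 starts that a region covered in both lists, the region reached a median of 728 bp downstream after VTP50469 and 694 bp in DMSO, and 416 bp upstream after VTP50469 and 411 bp in DMSO.

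Broad H3K4me3 regions are known to mark genes of cell identity and high, steady transcription. There were 350 regions of 2 kb or wider after VTP50469 and 274 in DMSO; 175 of each list overlapped one of the other list, which is 50% of the VTP50469 and 63.9% of the DMSO ones. All 350 VTP50469 ones and 273 of the 274 DMSO ones overlapped some region of the other list. The widest region over a gene in both lists was at Irf2bp2, a transcriptional corepressor gene, with 5076 bp after VTP50469 and 5881 bp in DMSO. At Myc, the proto-oncogene of growth and proliferation, 1 region of 4529 bp (chr15:61983816-61988344) after VTP50469 took the place of 2 regions of 2320 and 756 bp in DMSO. Gfi1, a repressor that guides granulocyte development, had a region of 4258 bp after VTP50469 and 4062 bp in DMSO. The cell cycle kinase gene Cdk6 had 4192 bp after VTP50469 and 4004 bp in DMSO. A region inside Hoxb3, which reaches only the 2 kb flank of Hoxb5, had 4441 bp after VTP50469. The widest DMSO region that it overlapped had 3028 bp. Some of the widest intervals carried no annotated gene. The widest in both lists, chr9:3000102-3038187, had 38086 bp after VTP50469 and 38090 bp in DMSO at a fold of only 1.58 after VTP50469 and 1.81 in DMSO, and it was called in the MLL1 and Menin lists too. A second such interval, chr11:3100450-3104726, had 4277 bp after VTP50469 and 4278 bp in DMSO. On chromosome X, chrX:126768978-126777751 had 8774 bp after VTP50469, over 2 DMSO regions that covered 7063 bp of it, the wider one of 5178 bp. Lipg, an endothelial lipase gene, and Cish, a cytokine-induced inhibitor of STAT signalling, had regions of 4168 and 3997 bp after VTP50469, each over 2 DMSO regions.

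To describe genes, the bases covered by regions were summed from 2 kb before to 2 kb after each gene. The change is log2 of the VTP50469 length plus 200 bp over the DMSO length plus 200 bp, which understates the change of genes with little length. It was compared for the 7949 of 21631 protein-coding genes with a mean of at least 500 bp over both lists, and a gene is called longer or shorter past 1.5-fold, without a test. The compared genes had a median of 1037 bp after VTP50469 and 968 bp in DMSO, and a median log2 change of 0.06. Longer after VTP50469 were 709 genes (8.92%), and shorter 304 (3.82%). Counted by starts, 8745 genes had a region within 1 kb of a start after VTP50469 and 8431 in DMSO, 8106 of them in both. Gains at the start numbered 639, which is 4.84% of the starts without a region in DMSO. Losses numbered 325, or 3.85% of the starts with one in DMSO, and 287 of these genes had no base left.

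**Figure D2:**
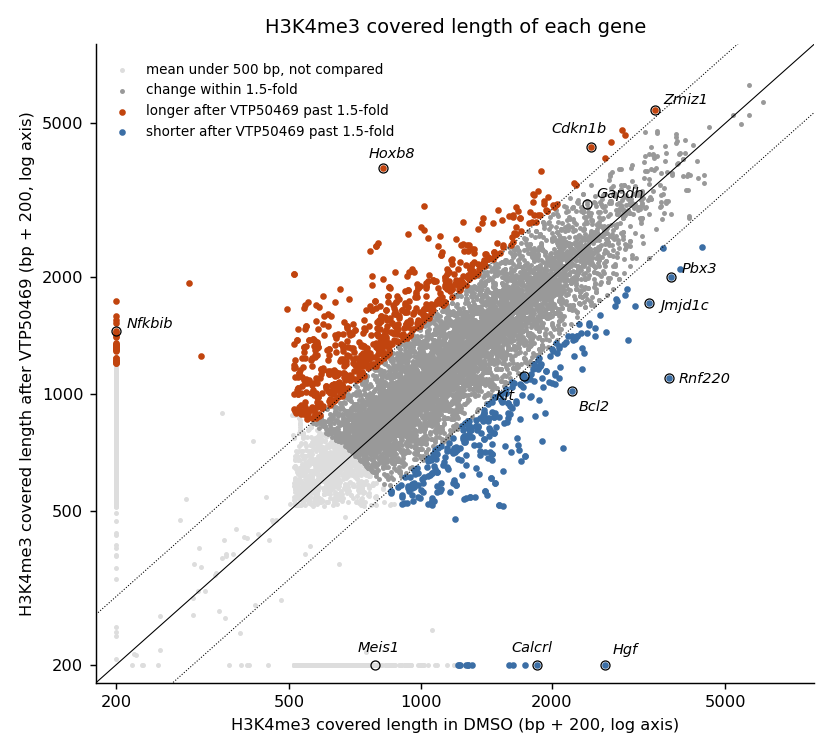
H3K4me3 covered length of each gene, with 200 bp added, after VTP50469 (vertical, log axis) and in DMSO (horizontal, log axis); the solid line is no change and the dotted lines 1.5-fold. Hoxb8 lies above the lines, Rnf220, Pbx3 and Bcl2 below them, and Hgf and Calcrl at no covered length after VTP50469.

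Among the 10 genes that lost most covered length, 4 had no H3K4me3 region left after VTP50469. Of these 10 genes 3 are on the list of Menin-MLL targets, which was chosen with earlier results of these data known. Rnf220, a ubiquitin ligase gene, had 901 bp after VTP50469 and 3519 bp in DMSO. Hgf, which encodes hepatocyte growth factor, had 0 bp after VTP50469 and 2450 bp in DMSO, in regions of 2105 and 345 bp at its start. The other 3 at 0 bp after VTP50469 were Calcrl, the receptor gene for CGRP and adrenomedullin (1646 bp in DMSO), the DNA repair gene Alkbh2 (1538 bp) and Srgn (1431 bp), which encodes the core protein of secretory granules in blood cells. The main DMSO region had a fold of 6.20 at Hgf and 4.64 at Calcrl, against a median of 6.54 over the DMSO list. Rabgap1l, a GTPase-activating protein gene, had 1903 bp after VTP50469 and 3734 bp in DMSO. The splicing factor gene Hnrnpl had 1176 bp after VTP50469 and 2784 bp in DMSO. Zfp978, with 2202 bp after VTP50469 and 4211 bp in DMSO, belongs to a zinc finger family whose copies share sequence, so its reads are uncertain. Pbx3 and Jmjd1c, also among the 10, are described with their list.

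The largest gain was at Hoxb8, with 3619 bp after VTP50469 and 620 bp in DMSO. Zmiz1, a coactivator gene, had 5214 bp after VTP50469 and 3241 bp in DMSO. Cdkn1b, which encodes the CDK inhibitor p27, had 4128 bp after VTP50469 and 2264 bp in DMSO. Nfix, a nuclear factor I gene of haematopoietic progenitors, had 3565 bp after VTP50469 and 1686 bp in DMSO. Gains of the same order were at the flippase gene Atp8b4 (4605 bp after VTP50469, 2700 bp in DMSO), at Ap3s1 of the AP-3 adaptor (4257 bp after VTP50469, 2530 bp in DMSO) and at the small GTPase gene Rhof (4453 bp after VTP50469, 2747 bp in DMSO). With only regions of −log10 q of at least 5 the gain at Rhof was gone (2603 bp after VTP50469, 2747 bp in DMSO), and with rows under 1 kb apart joined those at Atp8b4 and Cdkn1b fell short of 1.5-fold (4605 and 4128 bp after VTP50469, 3110 and 2700 bp in DMSO). Neighbouring genes that share regions cannot be told apart. Such genes were Eif3k with Map4k1 (2211 bp after VTP50469, 590 bp in DMSO), Hoxb8 with Hoxb7, Acin1 with 1700123O20Rik (2853 bp over Acin1 after VTP50469, 819 bp in DMSO), Slc4a2 with Cdk5 (2492 bp over Slc4a2 after VTP50469, 803 bp in DMSO) and Tsga10ip with Sart1 (2260 bp over Tsga10ip after VTP50469, 598 bp in DMSO). With only regions of −log10 q of at least 5, or with lists of equal length, Eif3k and Map4k1 were no longer called (731 bp after VTP50469, 590 bp in DMSO). With their 2 kb flanks, Nfix also overlaps its neighbour Lyl1, and Rhof its neighbour Setd1b. Neither Nfix nor Rhof had a region within 1 kb of its own start in either list, so their gains may belong to these neighbours.

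Starts gained with the strongest regions included Mif, a cytokine gene, with 1004 bp after VTP50469 and 0 bp in DMSO, at a fold of 9.80. Nfkbib, which encodes an inhibitor of NF-κB, had 1251 bp after VTP50469 and 0 bp in DMSO. Litaf, an endosomal protein gene, had 720 bp and the mitochondrial ribosome gene Mrps25 728 bp after VTP50469, both with 0 bp in DMSO. The strongest starts lost included those of Aopep (fold 9.28 in DMSO), Mthfd2, a mitochondrial folate enzyme gene, and Trappc12. All 3 kept other regions inside the gene: Aopep had 1060 bp after VTP50469 and 1651 bp in DMSO, Mthfd2 1491 bp after VTP50469 and 2584 bp in DMSO, and Trappc12 330 bp after VTP50469 and 860 bp in DMSO. Ctso, a cathepsin gene, had 0 bp after VTP50469 and 468 bp in DMSO.

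The known targets of the Menin-MLL complex in leukaemia kept most of their H3K4me3 length as a group. Their list was chosen with earlier results of these data known, so its shares beside those of all genes are descriptive only. Of 29 genes on that list 27 had a region in either list and 24 could be compared; 6 were shorter and 1 longer, beside 3.82% shorter and 8.92% longer over all genes, and 12 had a log2 change below 0 and 12 above it. Their summed length after VTP50469 was 94.8% of that in DMSO (55819 bp after VTP50469, 58855 bp in DMSO), beside 108% over all genes, while their MLL1 length was 37.5% of DMSO, beside 76.6% over all genes. Meis1, the HOX cofactor, had 0 bp after VTP50469 and 587 bp in DMSO (chr11:19018273-19018859, fold 5.06), too little to enter the comparison. Pbx3, another HOX cofactor, had 1804 bp after VTP50469 and 3545 bp in DMSO: the region over the annotated gene end stayed (1804 bp after VTP50469, 1560 bp in DMSO), and a weaker one inside the gene, of 1985 bp and fold 4.64 in DMSO, was absent after VTP50469. Jmjd1c, a jumonji-family gene needed in MLL-rearranged leukaemia cells, had 1517 bp after VTP50469 and 3147 bp in DMSO, with its first region kept (1148 bp after VTP50469, 955 bp in DMSO). The others called shorter besides Rnf220 were the anti-apoptotic gene Bcl2 (818 bp after VTP50469, 2021 bp in DMSO), the transcription factor gene Mef2c (539 bp after VTP50469, 1158 bp in DMSO) and Eya1 (359 bp after VTP50469, 970 bp in DMSO). The call at Mef2c rests on weak regions: with only regions of −log10 q of at least 5 it had 539 bp after VTP50469 and 492 bp in DMSO. Igf2bp3, an oncofetal RNA-binding protein gene, was the one called longer, with 2653 bp after VTP50469 and 1188 bp in DMSO, and with the same restriction 1812 bp after VTP50469 and 1188 bp in DMSO, short of 1.5-fold. Genes of the list that lost most of their MLL1 length but little or no H3K4me3 included Cdk6 (H3K4me3 4192 bp after VTP50469 and 4004 bp in DMSO; MLL1 4004 bp after VTP50469 and 15593 bp in DMSO) and Runx2 (H3K4me3 3967 bp after VTP50469 and 3714 bp in DMSO; MLL1 5307 bp after VTP50469 and 18239 bp in DMSO). Myb had 3507 bp of H3K4me3 after VTP50469 and 3574 bp in DMSO. Flt3 had no region in either list.

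**Figure D3:**
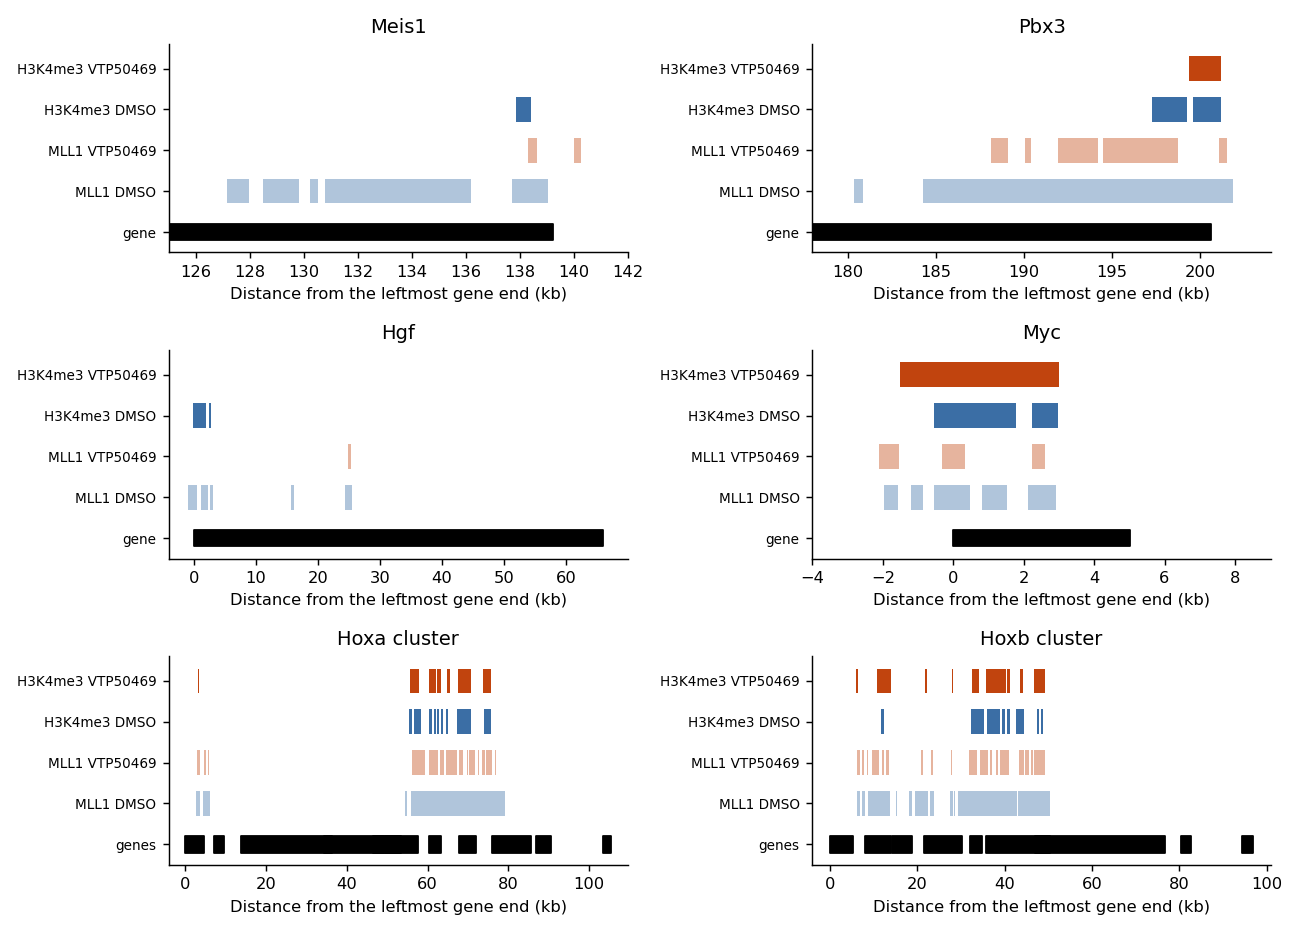
H3K4me3 and MLL1 regions after VTP50469 and in DMSO at 6 loci, drawn to scale against the distance in kb from the leftmost annotated gene end; black bars are genes, and the Meis1 and Pbx3 panels show the right-hand end of the gene. At Meis1 and Hgf no H3K4me3 region is drawn after VTP50469, at Myc 1 region replaces 2, and across Hoxa the MLL1 domain breaks up while H3K4me3 regions remain.

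The HOX clusters differed from each other in H3K4me3 length. Counting shared bases once, the Hoxa cluster had 11295 bp after VTP50469 and 10515 bp in DMSO, in 7 regions after VTP50469 and 9 in DMSO. Hoxa9 had 3481 bp after VTP50469 and 3580 bp in DMSO, Hoxa10 1773 bp after VTP50469 and 1854 bp in DMSO, and Hoxa7 3071 bp after VTP50469 and 2764 bp in DMSO. None of the 4 Hoxa genes compared was called, and their median log2 change was −0.05 while their summed length was 103% of DMSO. The direction of that sum depends on the gaps between regions: with rows under 1 kb apart joined, gaps included, it was 85.4% of DMSO. MLL1 over the same cluster had 16572 bp in 14 regions after VTP50469 and 26351 bp in 4 regions in DMSO. The Hoxb cluster, counted once, had 14365 bp of H3K4me3 after VTP50469 and 10641 bp in DMSO. There 3 of 5 genes compared were longer, beside 8.92% of all genes: Hoxb8, Hoxb4 (2356 bp after VTP50469, 910 bp in DMSO) and Hoxb7 (1733 bp after VTP50469, 94 bp in DMSO). The length of Hoxb7 is the part of the Hoxb8 regions that lies within its 2 kb flank, so the calls at Hoxb8 and Hoxb7 rest on the same regions. Hoxb6 had 869 bp and Hoxb9 447 bp after VTP50469, both with 0 bp in DMSO, while Hoxb3 had 8535 bp after VTP50469 and 8572 bp in DMSO and Hoxb5 2688 bp after VTP50469 and 3927 bp in DMSO. In the Hoxc cluster 1 of 4 genes compared was longer, Hoxc8 (2469 bp after VTP50469, 1156 bp in DMSO). The 9 Hoxd genes had no region in either list. Among HOX cofactors besides Meis1 and Pbx3, Pbx2 was longer, with 2836 bp after VTP50469 and 1451 bp in DMSO.

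Stem and progenitor regulators as a list had 99.7% of the DMSO length after VTP50469. Of 15 genes compared 1 was shorter and 1 longer, beside 3.82% shorter and 8.92% longer over all genes. Kit, the receptor for SCF, was shorter, with 912 bp after VTP50469 and 1530 bp in DMSO. Lyl1, a basic helix-loop-helix factor gene, was longer, with 3021 bp after VTP50469 and 1758 bp in DMSO, and with only regions of −log10 q of at least 5 short of 1.5-fold (2604 bp after VTP50469, 1758 bp in DMSO). Erg, an ETS factor gene, had 2293 bp after VTP50469 and 2630 bp in DMSO. Tal1 had 2208 bp after VTP50469 and 2823 bp in DMSO. Gata2 had 0 bp after VTP50469 and 318 bp in DMSO, and Prdm16 and Mecom, related zinc finger genes, had 794 and 352 bp after VTP50469 and 0 bp in DMSO.

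Myeloid differentiation genes had 116% of the DMSO length after VTP50469. Of 18 compared 3 were longer and 1 shorter, and 12 had a log2 change above 0 and 6 below it. Over all genes the length was 108%, 8.92% were longer and 3.82% shorter, and 4688 of 7949 lay above 0. The longer ones were Elane (1134 bp after VTP50469, 0 bp in DMSO), the transcription factor gene Maf (1680 bp after VTP50469, 649 bp in DMSO) and the GM-CSF receptor gene Csf2ra (754 bp after VTP50469, 342 bp in DMSO). The call at Elane rests on 1 weak region, with a fold of 3.83 against a median of 6.83 over the VTP50469 list. The macrophage surface gene Adgre1 was shorter, with 483 bp after VTP50469 and 839 bp in DMSO. All 4 C/EBP genes on the list had somewhat more length after VTP50469, within 1.5-fold: Cebpa 3948 bp after VTP50469 and 3207 bp in DMSO, Cebpb 3049 bp after VTP50469 and 2593 bp in DMSO, Cebpd 2125 bp after VTP50469 and 1399 bp in DMSO, and Cebpe 1576 bp after VTP50469 and 1109 bp in DMSO. The granule genes Mpo (2842 bp after VTP50469, 2946 bp in DMSO), Prtn3 (3564 bp after VTP50469, 3110 bp in DMSO) and Ctsg (2668 bp after VTP50469, 2192 bp in DMSO) were near their DMSO length. Csf3r had 430 bp after VTP50469 and 694 bp in DMSO.

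Cell cycle genes had 118% of the DMSO length after VTP50469, beside 108% over all genes, and 4 of 19 were longer, beside 8.92%; with rows under 1 kb apart joined 3 were. Besides Cdkn1b these were Cdkn2a, the gene of p16 and p19 (1106 bp after VTP50469, 617 bp in DMSO), Cdkn2c, the gene of p18 (1532 bp after VTP50469, 640 bp in DMSO), and the retinoblastoma gene Rb1 (3253 bp after VTP50469, 2075 bp in DMSO). Among the other CDK inhibitor genes on the list, Cdkn1a had 1256 bp after VTP50469 and 1113 bp in DMSO, and Cdkn2d 1956 bp after VTP50469 and 1991 bp in DMSO, while Cdkn1c and Cdkn2b had none in either list. E2f2, an activator of S phase genes, was shorter, with 654 bp after VTP50469 and 1094 bp in DMSO. The cyclin-dependent kinase genes Cdk1 (1163 bp after VTP50469, 1540 bp in DMSO), Cdk2 (1324 bp after VTP50469, 1219 bp in DMSO) and Cdk4 (869 bp after VTP50469, 971 bp in DMSO) were not called. In the BCL2 family 1 of 10 genes compared was shorter, Bcl2 itself, beside 3.82% of all genes. Mcl1 had 2734 bp after VTP50469 and 2231 bp in DMSO. The pro-apoptotic gene Bad had 1793 bp after VTP50469 and 2512 bp in DMSO, and the list as a whole 94.9% of its DMSO length.

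The genes of the enzymes that write and erase H3K4 methylation kept regions of the mark. Of 15 methyltransferase and Menin complex genes compared 1 was longer, the core subunit gene Rbbp5 (1375 bp after VTP50469, 652 bp in DMSO), and none shorter. Over all genes 8.92% were longer and 3.82% shorter. The count of shorter genes on the list is 2 when regions under 1 kb apart are joined. Kmt2a, the gene of MLL1, had 1828 bp after VTP50469 and 2230 bp in DMSO, and Men1, the gene of Menin, 377 bp after VTP50469 and 333 bp in DMSO. Kmt2d had 4323 bp after VTP50469 and 3840 bp in DMSO. None of the 7 demethylase genes compared was called; Kdm2b had 2918 bp after VTP50469 and 3458 bp in DMSO, and the list 92.3% of its DMSO length. The writer list had 109%. Among 11 MLL fusion partner and elongation genes 1 was longer, again beside 8.92% of all genes: Mllt11 (3150 bp after VTP50469, 1660 bp in DMSO). Aff3, with 0 bp after VTP50469 and 701 bp in DMSO, had too little length to be compared. Aff1 had 3465 bp after VTP50469 and 4253 bp in DMSO. Mllt3 had 2617 bp after VTP50469 and 3006 bp in DMSO, beside MLL1 lengths of 1895 bp after VTP50469 and 11006 bp in DMSO.

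Genes used as a yardstick were close to the whole list. Housekeeping genes had 111% of the DMSO length after VTP50469, with 2 of 22 longer (Sdha and Tuba1b) and none shorter. Ribosomal protein genes had 108%, with 7 of 77 longer (such as Rps2, 2744 bp after VTP50469 and 1579 bp in DMSO) and 1 shorter (Rpl37a, 723 bp after VTP50469 and 1421 bp in DMSO). Of all genes 8.92% were longer and 3.82% shorter, with 108% of the DMSO length. Actb had 2005 bp after VTP50469 and 1615 bp in DMSO, and Gapdh 2899 bp after VTP50469 and 2205 bp in DMSO. None of 28 developmental transcription factor genes of other lineages had a region in either list. Interferon-stimulated genes had 114% of the DMSO length after VTP50469, with no call among 7 compared; Tap1, of the antigen peptide transporter, had 2509 bp after VTP50469 and 2823 bp in DMSO, and Usp18 and Gbp2 had 806 and 606 bp after VTP50469 and 0 bp in DMSO. Few genes of other blood lineages were marked. Of 21 lymphoid genes 4 had a region, led by Ikzf1 (2109 bp after VTP50469, 2302 bp in DMSO), and none of 3 compared was called. Of 15 erythroid and megakaryocyte genes 2 had one, neither called: Tfrc had 887 bp after VTP50469 and 1196 bp in DMSO. Among mast cell genes Mitf alone was marked, and longer (1043 bp after VTP50469, 587 bp in DMSO). Of 11 MHC class II genes H2-DMa alone had regions (5048 bp after VTP50469, 4993 bp in DMSO).

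**Figure D4:**
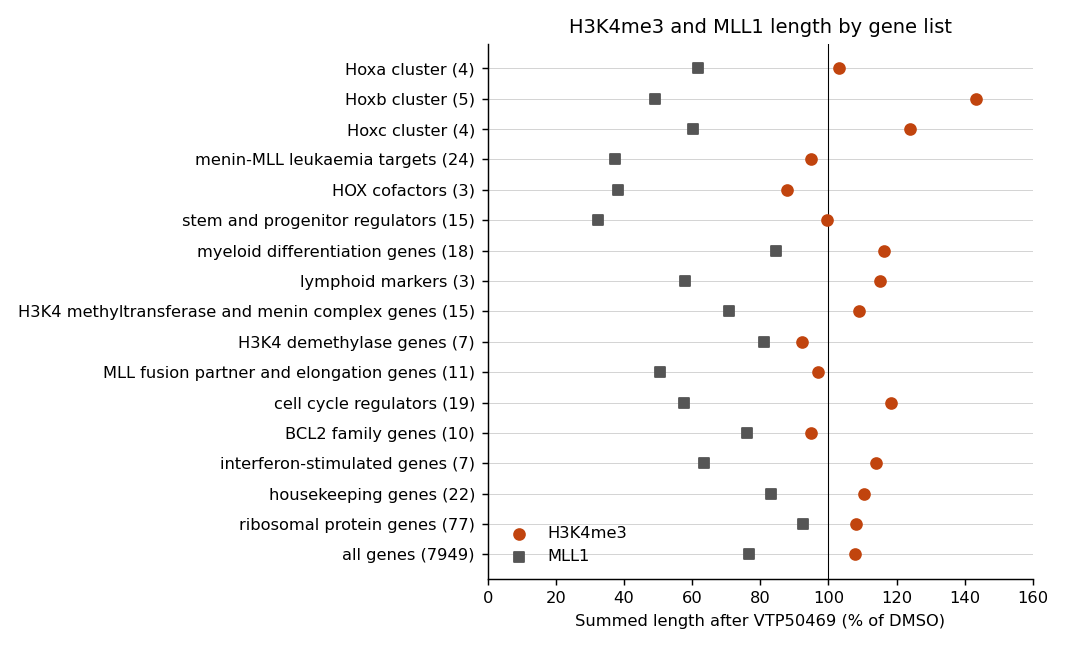
Summed H3K4me3 length (circles) and MLL1 length (squares) after VTP50469 as a percentage of DMSO, for each gene list with at least 3 genes compared (their number in brackets); MLL1 lies left of 100% in every row drawn, and H3K4me3 between 87.9% (HOX cofactors) and 143% (Hoxb). Bases shared by neighbouring genes are counted for each gene.

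Myeloid markers were mostly, not all, marked. Of 9 myeloid markers 7 had a region after VTP50469 and 6 in DMSO, among them Spi1, Cebpa, Mpo, Kit and Ptprc, while Csf1r and Itgam had none in either list. None of the 5 lymphoid and 3 neural markers had a region. Of 3 erythroid markers Klf1 alone had one (630 bp after VTP50469, 791 bp in DMSO), and of 4 stromal and endothelial markers Pecam1 alone, which myeloid cells also express (1247 bp after VTP50469, 2463 bp in DMSO). The summed length of the stromal and endothelial markers was thus 1247 bp after VTP50469 and 2463 bp in DMSO, with Col1a1, Cdh5 and Pdgfrb at 0.

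The enzyme's own position was set against the mark through the MLL1 and Menin lists. In DMSO 8220 of the 9347 H3K4me3 regions (87.9%) overlapped an MLL1 region. Of these 5.23% were lost after VTP50469 (interval 4.77 to 5.73), against 39.8% (37.0 to 42.7) of the 1127 regions without MLL1. Regions without MLL1 were also weaker, with a median fold of 4.64 against 6.96. Within the lowest fold decile 24.2% of 524 regions with MLL1 and 71.5% of 411 without it were lost, and within the next decile 19.3% of 694 and 41.1% of 241. Where MLL1 was called in DMSO only, 15.3% of 541 H3K4me3 regions were lost, against 4.52% of 7679 where MLL1 was called in both of its lists; their median folds were 5.69 and 6.96. Regions with Menin in DMSO were lost in 3.37% of 3705 cases, against 13.4% of 5642 without Menin. The median fold was 7.17 with Menin and 6.12 without it. The MLL1 libraries are listed at 72 h and the H3K4me3 libraries at 96 h, and their titles differ in the line's name and number tag. MLL1's own fold steps differ the other way (0.324 after VTP50469, 0.284 in DMSO). The part of these differences was not tested.

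Genes with a wide MLL1 domain, at least 4 kb of MLL1 in DMSO, numbered 375, of which 224 kept at most 50% of that length after VTP50469. H3K4me3 could be compared at 208 of these 224. Their median MLL1 length was 2032 bp after VTP50469 and 6100 bp in DMSO, and their median H3K4me3 length 1692 bp after VTP50469 and 1704 bp in DMSO. Called shorter were 16 (7.69%, interval 4.79 to 12.1), beside 3.82% of all genes, and called longer 14 (6.73%), beside 8.92%. Of the 136 that kept over 50% of their MLL1 length 0 were shorter (at most 2.75%) and 16 longer (11.8%). The median log2 changes of H3K4me3 were −0.03 and 0.02, against 0.06 over all genes. The 16 shorter genes included Hgf, Calcrl, Srgn, Rnf220, Eya1, Jmjd1c, Rabgap1l, Pbx3 and Mef2c. The rest were Skap2 (524 bp after VTP50469, 1923 bp in DMSO), Zcchc7 (559 bp after VTP50469, 1698 bp in DMSO), Wdpcp, Map3k14, Kcnq5, Tox (1208 bp after VTP50469, 2026 bp in DMSO) and Abcb1a. Of the 130 compared genes with no MLL1, 9 were shorter (6.92%, interval 3.68 to 12.6) and 21 longer (16.2%). The differences between these shares have no test.

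**Figure D5:**
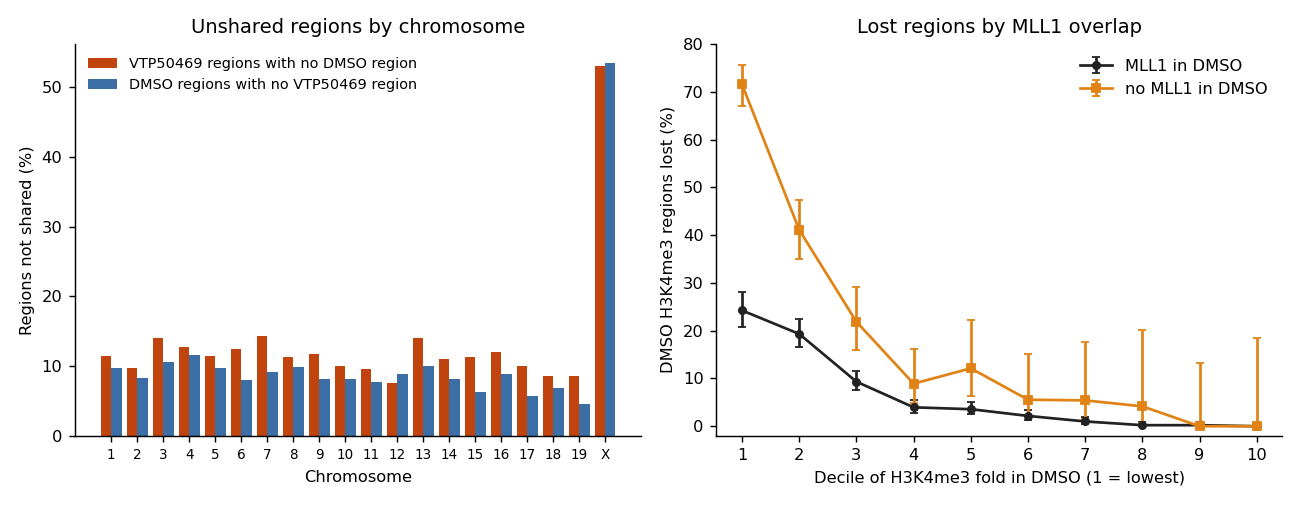
Left, share of each list's H3K4me3 regions that share no base with the other list, by chromosome; X reaches 53.0% of VTP50469 and 53.5% of DMSO regions. Right, share of DMSO H3K4me3 regions lost after VTP50469 by decile of their fold, for regions with and without an overlapping MLL1 region in DMSO, with 95% Wilson intervals (counting only).

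Chromosome X stood apart from the autosomes. Of its 164 VTP50469 regions 87 were new (53.0%, interval 45.4 to 60.5), and of its 170 DMSO regions 91 were lost (53.5%, 46.0 to 60.9). On single autosomes new regions made up 7.54 to 14.3% and lost ones 4.60 to 11.5%. The mark was also sparse on X: 11.6% of its 966 genes had a region at the start after VTP50469 and 9.01% in DMSO, against 41.8% after VTP50469 and 40.4% in DMSO of autosomal genes. MLL1 covered 31.1% of X genes after VTP50469 and 29.8% in DMSO, against 55.5% after VTP50469 and 54.1% in DMSO of autosomal genes. Regions on X were weaker, with a median fold of 4.29 after VTP50469 and 4.22 in DMSO, against 6.97 after VTP50469 and 6.75 in DMSO on autosomes. Among DMSO regions in the 3 lowest fold deciles 58.9% of 146 on X and 24.5% of 2815 on autosomes were lost, and above them 20.8% of 24 and 1.56% of 6362. X regions were still the weaker ones within these groups. Their median fold was 4.01, against 4.64 on autosomes, in the 3 lowest deciles, and 6.54 against 7.59 above them. At gene starts 28.2% of 85 X regions and 5.31% of 8218 autosomal ones were lost, with median folds of 4.64 and 6.80. Genes lost at the start on X included the nucleotide synthesis gene Prps1 (0 bp after VTP50469, 1086 bp in DMSO) and the respiratory chain gene Cox7b (0 bp after VTP50469, 750 bp in DMSO). Gained ones included the chromatin remodeller gene Atrx (492 bp after VTP50469, 0 bp in DMSO), Hcfc1, a partner of MLL and SET1 enzymes (568 bp after VTP50469, 0 bp in DMSO), and the ribosomal gene Rpl10 (1148 bp after VTP50469, 0 bp in DMSO). Kdm6a, a histone demethylase gene, had the most H3K4me3 of the X genes kept at the start, with 2664 bp after VTP50469 and 1784 bp in DMSO.

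CpG content of the promoter went with whether a start was shared. For the 14513 genes with a single annotated start the median number of CpG in the 250 bases upstream was 15 at starts gained after VTP50469, 14 at starts lost, 18 at starts marked in both lists and 3 at starts marked in neither, with 9 over all. Fewer than 5 CpG were found at 12.3% of gained, 10.0% of lost, 2.98% of shared and 56.9% of unmarked starts. Lost starts were also the weaker ones, and the contrast was smaller among starts whose DMSO region had a fold in the 3 lowest deciles: the median was 15 at lost and 16 at shared starts, and 9.04% of lost and 6.28% of shared starts had fewer than 5 CpG. The letters TATAAA, searched on the gene's strand in the last 50 of these bases, were found at 0.756% of gained, 1.31% of lost and 1.09% of shared starts, 6.01% of unmarked and 4.00% of all starts. Elane, gained with 3 CpG, Calcrl, lost with 3, and Mpo, shared with 2, are among the few marked starts with so little CpG, which the capitals in their sequences show.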

How the data were processed

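H3K4me3 ChIP was measured in NUP98-HOXA9 mouse leukaemia cells, 1 library per condition (VTP50469 at 2 µM or DMSO, 96 h), so no test across samples was possible. Per the submitters' processing notes the tools included bcl2fastq 2.20.0.422, STAR 2.7.5a, Picard 2.9.4, MACS2 and bedtools, with genome build mm10; which input served as control for each list is not given in the sources used here. The deposited lists hold 1 region per row with its position, the authors' fold over background (a ratio) at the summit and −log10 p and −log10 q values, called per library. The authors' fold is used only within a list. Every region had a −log10 q of at least 2.03.

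Rows on chromosomes 1 to 19 and X were kept (99 rows of the VTP50469 list and 96 of the DMSO list lay on other contigs) and compared by an overlap of at least 1 bp, with Python 3.11.15, numpy 2.4.6 and pandas 2.3.3. Gene positions came from RefSeq's table for GRCm38.p6 (the same coordinates as mm10 for these chromosomes), starts for 17274 of 21631 genes from its promoter table; otherwise both gene ends counted as starts. Reads per region are unknown. Overlap and length code was tested on simulated data. Named were the 10 genes of largest loss and gain, the 8 strongest starts lost and gained, the lowest and highest ratios above 2 kb, the widest regions, leading or called members of 21 gene lists, and Actb, Gapdh, Men1 and Kmt2a; some other genes were chosen after their values were seen. The members and lists were chosen with earlier results of these data known. The alternatives were a stricter q value, lists of equal length, stitched rows, and other overlaps, windows, flanks, minimum lengths and folds.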

Additional observations from a re-analysis of the deposited data

How the results depend on the processing

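Across all alternatives tried, VTP50469 regions stayed more often new than DMSO regions were lost, covered length stayed above that of DMSO, and more genes were longer than shorter. With regions of −log10 q of at least 5 in both lists, 7.87% of DMSO regions were lost; when only the list counted was so restricted and set against the full other list (an alternative chosen after seeing the data), 9.14% of VTP50469 regions were new and 6.22% of DMSO regions lost. Lists of equal length gave 11.3% new. Rows under 1 kb apart, stitched, gave 10.6% new, 8.48% lost and 1.14 times as many regions of 2 kb or wider after VTP50469 as in DMSO, against 1.28 times as deposited; at 4 kb that ratio was 1.5. Counts of genes followed the rules of the call: without a flank 428 were longer; with 500 bp added 394 were longer and 154 shorter; with no minimum length 1396 and 692; and at a fold of 2, 165 and 62. With −log10 q of at least 5 the median H3K4me3 change at genes that lost MLL1 was 0.01, against −0.03. Of 43 named genes with a call, 2 turned direction there (Rhof and Mef2c) and 6 in all lost the call; equal lists ended it at Eif3k and Map4k1, and stitching at Atp8b4 and Cdkn1b. When stitched, the length after VTP50469 was 85.4% of DMSO at Hoxa, against 103%, 121% at Hoxb, against 143%, 94.8% over the MHC class II genes (1 compared), against 101%, and 103% over the stem cell genes, against 99.7%. No paired analysis was possible because each condition has 1 library. Depth is not known from these lists and its part was not tested; a region absent from a list does not show that the mark was absent.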

Other observations

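Unshared regions mostly lay far from shared ones. The nearest shared region of the same list lay at a median of 44690 bp from the 1133 new VTP50469 regions. For the 879 lost DMSO regions this distance was 54004 bp at the median. Of the new regions 16.5%, and of the lost 16.8%, lay within 1 kb of a shared one.

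Summits of regions paired 1 to 1 moved by a median of 67 bp, with 82.8% within 200 bp. Of the 1170 starts covered in both lists, the region reached further downstream than upstream at 72.7% after VTP50469 and 72.3% in DMSO. Among those where it narrowed after VTP50469 by more than 500 bp in all (48 starts), the median change was −370 bp downstream and −260 bp upstream; where it widened by as much (78 starts), it was 400 bp downstream and 284 bp upstream.

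The lost starts of Trmt10b and Nipsnap1 had 0 and 576 bp after VTP50469 and 433 and 1109 bp in DMSO, and the gained starts of Tkfc and Dbp, a circadian transcription factor gene, 1189 and 1467 bp after VTP50469 and 366 and 590 bp in DMSO. Pfkm, the muscle phosphofructokinase gene, had 960 bp after VTP50469 and 2146 bp in DMSO, and Reps1 1073 bp after VTP50469 and 2166 bp in DMSO.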
